A study of Rattus norvegicus with 30 samples.

Results

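Maturation of the rat lung between 1 and 5 wk of age was followed across genes by comparing whole lungs of 7-day-old rats with whole lungs of 35-day-old rats. All were wild-type Sprague-Dawley rats, an outbred laboratory strain, on a normal diet. The comparison took the 5 arrays titled as 1 wk lung and the 5 titled as 5 wk lung without a diet label, 10 of the 30 arrays of the series. The remaining arrays were 5 lungs of 35-day-old rats whose diet was deficient in tryptophan, an essential amino acid, until 4 wk of age, and kidneys of the same 3 kinds of rat. The deficient lungs entered the fit only for its estimate of the spread, and the kidneys only the comparison of organs at the end. The design text of the series speaks of mice, while its title and every sample label name the rat. The stated purpose of the age groups was to set fast-growing young animals against animals that grow more slowly.

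The rat is born with wide, thick-walled air sacs, and most alveoli form after birth. Myofibroblasts lay down elastin at the tips of ridges that grow out from the sac walls, and these secondary septa then thin as fibroblasts are lost and the capillary bed is remodelled. Flat type 1 cells carry gas exchange, cuboidal type 2 cells make surfactant, and the conducting airways are lined by club, ciliated and mucus cells that clear and detoxify what is inhaled. Resident and circulating immune cells fill the lung over the same weeks, as the animal meets microbes and is weaned.

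The median signal of the 10 lung arrays lay between 172.5 and 188.9. Correlations over genes were 0.98 to 0.989 between arrays of the same age and 0.953 to 0.964 between ages. Of 10 lung marker genes, 9 were higher on every lung array than on every kidney array, the exception being Napsa, and all 9 kidney markers were higher on every kidney array. Of 10802 genes tested in lung, 3074 rose from 1 to 5 wk and 2902 fell at an adjusted p under 0.05 in limma's fit (28.5% and 26.9%, together 55.3%). Among these, 496 rose and 338 fell by at least 2-fold (4.59% and 3.13%). The median difference of all genes tested was 0.0031 on the log2 scale. "Rose" and "fell" below mean called at that threshold, differences are of log2(signal + 16) with their standard error (SE) and n = 5 per age, and signals are the deposited linear values. A fold is given only where both ages were above the arrays' 40th percentile, and "at least N-fold" is measured from that percentile where the lower age lay beneath it. The fitted log2 difference of such a gene depends on the added 16 and does not measure its size. Counts of genes that changed at least 2-fold are of fitted log2 differences of at least 1, also for such genes. Counts in the lists below are to be read beside the shares of all genes tested given above. A level in whole lung cannot tell more cells of a type from more RNA per cell.

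Some arrays stood apart in transcripts that mark other organs, and where these came from was not tested. Alb, the serum albumin of the liver, had signals of 762, 134, 2207, 8389 and 150.5 at 1 wk against 56.5 to 149 at 5 wk. The 1 wk array 4 was also the highest for Ahsg, another liver protein, at 1586. Acta1, the actin of skeletal muscle, reached 4482 on 1 wk array 2 and 265 to 740.4 on the other 1 wk arrays. Nppa, the atrial natriuretic peptide of heart muscle, reached 3127 on 5 wk array 3 and 58.4 to 122 on the other 5 wk arrays, and at 1 wk it was 527, 94.2, 500.4, 279 and 39.9. The mean log2 level of 14 cardiac muscle genes ranged from 8.33 to 9.51 at 1 wk and from 8.65 to 10.29 at 5 wk, so that the ages overlapped. The highest cardiac mean at 1 wk was on array 1, and rodent lung veins hold cardiac muscle of their own. Without 1 wk arrays 2 and 4 and 5 wk array 3, a setting added after the data were seen, 2584 genes rose and 2361 fell.

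**Figure D1:**
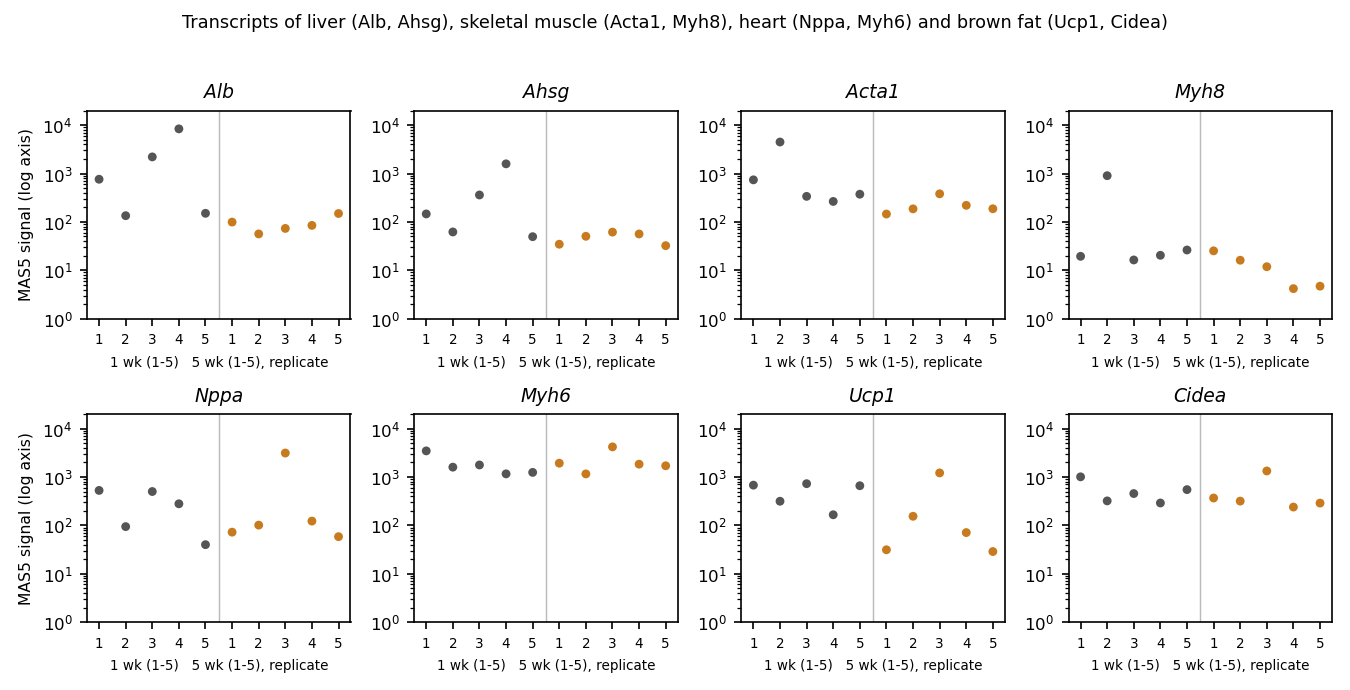
Signals on a log axis of 8 transcripts that mark liver, skeletal muscle, heart and brown fat, on each 1 wk lung array (grey, 1 to 5) and each 5 wk lung array (orange, 1 to 5). Albumin stands out on 1 wk array 4 (8389), Acta1 on 1 wk array 2 (4482) and Nppa on 5 wk array 3 (3127).

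The gas-exchange epithelium gained transcripts of type 1 and type 2 cells. Of 10 type 1 genes tested, 8 rose and none fell, against 28.5% and 26.9% of all genes tested, with a median difference of 0.41. Aqp5, the apical water channel of type 1 cells, had signals of 558, 642, 768, 726 and 671 at 1 wk and 2772, 3264, 2491, 2697 and 3008 at 5 wk. The ages did not overlap, and Aqp5 rose 4.16-fold (2.06 ± 0.083, adjusted p = 6.17e-11). Ager, the receptor RAGE of the basal type 1 membrane, rose 1.56-fold (adjusted p = 7.20e-06), from between 5736 and 7212 at 1 wk to between 9019 and 11176 at 5 wk. Clic5, an actin-bound chloride channel protein, rose 1.52-fold, Gprc5a 1.37-fold, and Hopx, a homeodomain protein of type 1 cells, 1.29-fold. The rises of Pdpn (1.16-fold) and Emp2 (1.21-fold), membrane proteins of the same cells, were smaller, and that of Pdpn was lost without 1 wk array 4 (adjusted p = 0.0585). Cav1, the coat protein of caveolae, was not called, at -0.024, but rose by 0.27 when its probe sets were averaged.

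Surfactant proteins had unlike calls. Sftpa1, a collectin that binds microbes, had signals of 8741, 9482, 8777, 7703 and 7023 at 1 wk and 15658, 15569.6, 15838, 15322 and 16259.5 at 5 wk. All 5 wk arrays were higher, and the rise was 1.89-fold (0.92 ± 0.085, adjusted p = 2.58e-07). Sftpd, the other collectin, rose 1.36-fold. Sftpc and Sftpb are the hydrophobic proteins that spread the surfactant film. Sftpc was 18516, 17673, 20827, 17199 and 16729 at 1 wk and 14962, 16884, 16635, 13346 and 15438 at 5 wk. It fell 1.18-fold, with overlapping ages and an adjusted p of 0.0479, a call that was lost when any of 7 single arrays was left out (adjusted p 0.0522 to 0.127). Sftpb was not called (0.038 ± 0.07), but rose by 0.17 under quantile normalization (adjusted p = 0.00205). Sftpc and Sftpa1 were among the 20 genes of highest signal on the lung arrays, as were Scgb1a1, Lyz2, Col1a1 and Col3a1, and whether signals this high compress differences was not tested. Genes of the lamellar body, the storage organelle of surfactant, rose: the lipid pump Abca3 1.34-fold, Lamp3 1.28-fold, and Lpcat1, which remodels surfactant phosphatidylcholine, 1.42-fold. In all, 8 of 14 type 2 genes rose and 1 fell (median 0.35).

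Lipid synthesis showed a mixed picture, with 5 of 12 genes rising and 1 falling (41.7% and 8.33%, against 28.5% and 26.9% of all genes tested). Fasn, the fatty acid synthase, rose 1.38-fold and Pnpla2, a triglyceride lipase, 1.59-fold, while Elovl6, which lengthens palmitate, fell by 0.91 on the log2 scale from between 156 and 202 at 1 wk to between 62.9 and 123 at 5 wk. Scd, the desaturase, was not called and varied widely, from 891 to 1922 at 1 wk and from 819.6 to 1846 at 5 wk. Of the subunits of the epithelial sodium channel, which clears alveolar fluid, Scnn1a rose 1.82-fold and Scnn1b 1.34-fold, and Scnn1g was not called (0.012 ± 0.14). Atp1b1, a subunit of the sodium pump, rose 1.42-fold. Cftr, the chloride channel, fell 1.36-fold with overlapping ages.

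Of 13 epithelial transcription factors, 5 rose (38.5%), 3 fell (23.1%) and 5 were not called, against 28.5% and 26.9% of all genes tested. Nkx2-1, the lineage factor of lung epithelium, was 2436 to 3181 at 1 wk and 2542 to 3495 at 5 wk, and Foxa2 differed by 0.14 ± 0.07, which was called without 5 wk array 3 (adjusted p = 0.0079). The C/EBP factors, which drive secretory and lipid genes, were higher at 5 wk: Cebpd rose 3.46-fold (adjusted p = 1.03e-06) and Cebpa 1.65-fold. Sox2, a factor of the conducting airways, rose 1.79-fold, and Id2 fell 1.39-fold.

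The alveolar fibroblast list split. Fgf18, a growth factor made during septation, had signals of 697, 753, 657, 795 and 749 at 1 wk and 84.8, 146, 140.2, 114 and 146 at 5 wk. It fell 5.31-fold (-2.41 ± 0.12, adjusted p = 3.81e-10), and the ages lay far apart. Wnt2, a ligand of lung mesenchyme, fell 3.58-fold (adjusted p = 7.44e-09). The mesenchymal factors Tbx5 (2.17-fold), Tbx4 (1.84-fold) and Foxf1 (1.62-fold) fell with no overlap of the ages. Pdgfra, the receptor that marks septal myofibroblast and lipofibroblast precursors, was not called (0.20 ± 0.11), but was without 5 wk array 2 (adjusted p = 0.0383). Of genes of lipid-storing fibroblasts, Plin2 fell 1.30-fold, whereas Lpl, the lipoprotein lipase, rose 2.00-fold and Pparg 1.61-fold. Altogether 7 of 12 fell and 4 rose (median -0.36). Over the whole alveolar program of 67 tested genes, 32 rose, 13 fell and 22 were not called, with a median of 0.19.

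**Figure D2:**
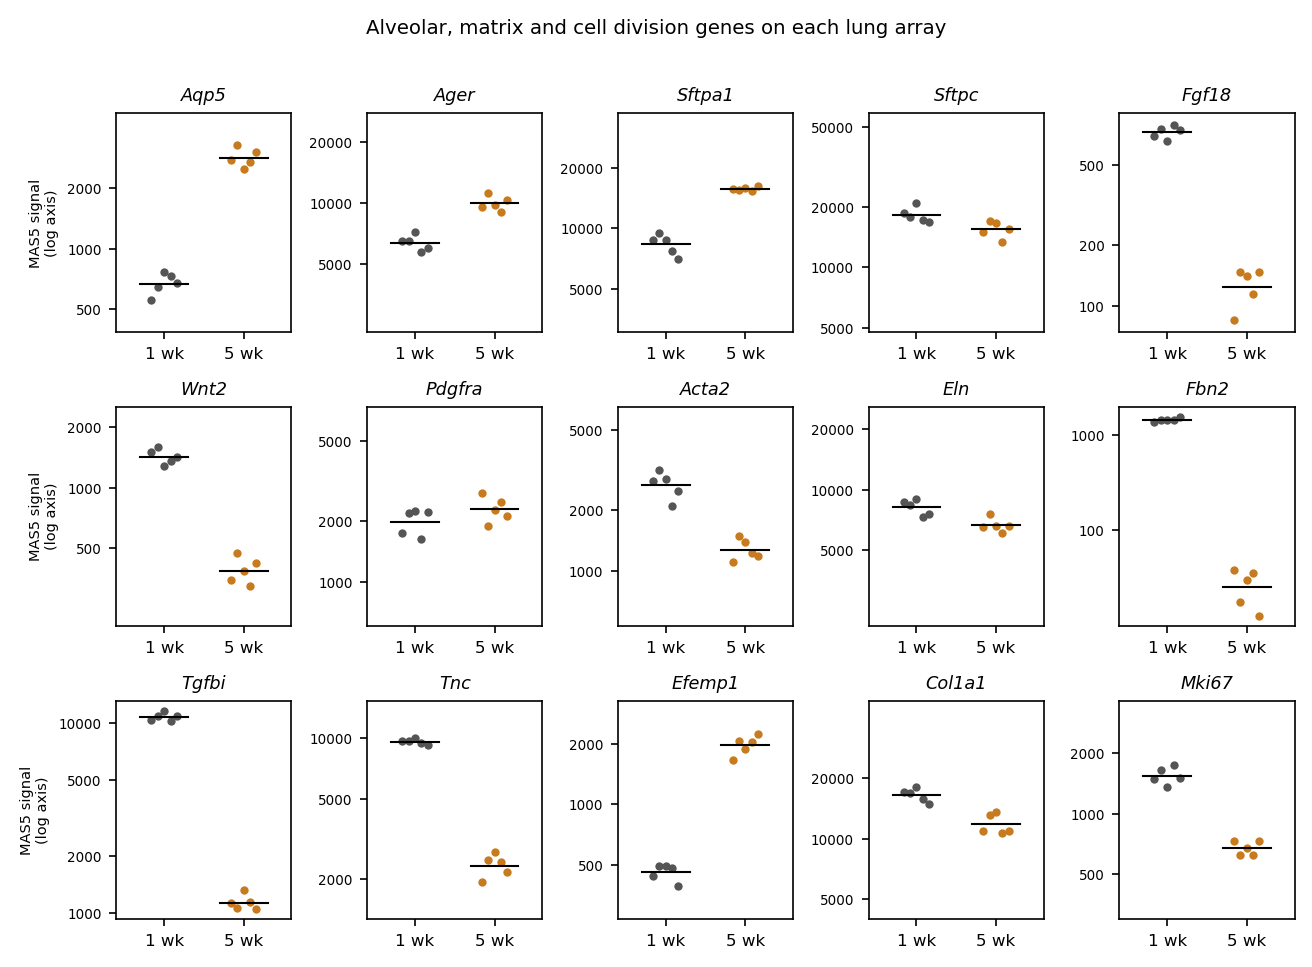
Signals on log axes of 15 alveolar, matrix and cell division genes on each of the 5 lung arrays at 1 wk (grey) and at 5 wk (orange), with a line at the mean taken on the log2(signal + 16) scale. Aqp5 is 4.16-fold higher and Fgf18 5.31-fold lower at 5 wk, with no overlap, while the 2 ages overlap for Sftpc, Pdgfra and Eln.

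Airway genes mostly rose, and several of the largest rises were in detoxification and mucosal defence. Of 75 airway genes tested, 54 rose and 4 fell (72% and 5.33%, against 28.5% and 26.9% of all genes tested, median 0.55). Of the 75, 20 rose at least 2-fold, against 4.59% of all genes tested. The program includes 25 genes of xenobiotic metabolism and 14 antioxidant enzymes. Scgb1a1, the secretory protein that defines club cells, was 13786 to 16145 at 1 wk and 14046 to 16231 at 5 wk, with no called difference, though quantile normalization called it (adjusted p = 0.000425). Scgb3a1, a related secretoglobin, was not called either (-0.15 ± 0.15). The metabolic enzymes of club cells did rise: Cyp2a3 4.70-fold (adjusted p = 5.17e-08), Aldh1a1 3.53-fold, Cyp4b1 2.61-fold and Cyp2f4 1.86-fold.

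Cyp1a1, the cytochrome P450 induced through the aryl hydrocarbon receptor, showed the largest rise of all tested genes whose ages did not overlap. Its signals were 9.64, 5.33, 17.3, 2.42 and 75.6 at 1 wk, all beneath the 40th percentile, and 2045, 5513, 4216, 4162 and 7953 at 5 wk. The difference was 7.12 ± 0.38 (adjusted p = 1.19e-09), or at least 37.1-fold, and the 5 wk arrays differed among themselves by more than 3-fold. Other genes of the same receptor did not follow in step. Cyp1b1 fell 2.23-fold, the receptor gene Ahr was not called (-0.44 ± 0.20; without 1 wk array 3 or 5 wk array 2 its adjusted p was 0.0293 or 0.033), and Tiparp, which represses the receptor, rose 1.63-fold. Nqo1, a quinone reductase, rose 1.97-fold. The core motif that the receptor binds, GCGTG on either strand, was in the 300-base promoter window of 10 of 25 xenobiotic genes with a window (40%), against 32.4% of all 27457 genes with a window in RefSeq's GRCr8 table. Cyp1a1 itself had no window and is not in this count. Of the 10 with the motif 6 rose and 1 fell, and of the 15 without it 12 rose and 1 fell.

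The flavin monooxygenases, which oxidise nitrogen- and sulphur-containing compounds, rose next. Fmo2, the lung form, had signals of 147, 103, 179.9, 105 and 197 at 1 wk and 3066, 1559, 2103, 2098 and 1977 at 5 wk. It rose 13.5-fold (3.75 ± 0.18, adjusted p = 3.62e-10), with all 5 wk arrays above all 1 wk arrays. Fmo1 rose 9.13-fold and Fmo5 2.42-fold. Cyp2e1 rose 4.74-fold, the glutathione transferase Gsta1 4.36-fold and the sulphotransferase Sult1a1 2.53-fold. Adh1c, an alcohol and retinol dehydrogenase, fell 2.17-fold. In all, 20 of 25 xenobiotic genes rose and 2 fell (80% and 8%, against 28.5% and 26.9% of all genes tested, median 0.95). Of 14 antioxidant enzymes, 10 rose and none fell, led by Sod3, the extracellular superoxide dismutase (2.62-fold), and the secreted peroxidase Gpx3 (2.48-fold). Catalase (Cat, -0.067 ± 0.079) and the cytosolic Sod1 (-0.01 ± 0.071) were not called.

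Mucosal defence was marked by Pigr, the receptor that carries polymeric immunoglobulin across epithelium. Its signals were 369, 317, 279.8, 227 and 298 at 1 wk and 8248, 7344, 7160.1, 7781 and 8442 at 5 wk. The spread within an age was small beside the gap between ages, and Pigr rose 25.1-fold (4.65 ± 0.13, adjusted p = 4.40e-12). Jchain, which joins the immunoglobulins that Pigr carries, is given with the immune genes. Bpifa1, an antimicrobial protein of the upper airway, had signals of 162, 251, 336, 73.4 and 414 at 1 wk and 3198, 2999, 5206, 1729 and 2711 at 5 wk. All 5 wk arrays were again higher, and the rise was 13.0-fold (adjusted p = 1.19e-06), with a wide spread at both ages. Its relative Bpifb1 rose 2.56-fold. Retnla, a secreted protein of epithelium and activated macrophages, rose 9.13-fold, and Lcn2, which binds bacterial siderophores, 4.42-fold. The mucin Muc5b was not called (-0.24 ± 0.21), and Muc5ac did not pass the filter. Slpi, an antiprotease, could not be placed, since its 5 wk signals ran from 81.1 to 979.

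Ciliated cell genes shifted together by small amounts. Of 16 tested, 14 rose (87.5%, against 28.5% of all genes tested) and none fell, with a median of 0.49. The largest were Dynlrb2, a dynein light chain, at 2.15-fold (adjusted p = 9.41e-09), and Ak7, an axonemal adenylate kinase, at 2.03-fold. Tppp3 rose 1.58-fold and the tektins Tekt1, Tekt2 and Tekt4 between 1.32- and 1.49-fold. The factors that direct ciliogenesis did less: Foxj1 (0.20 ± 0.12) and Rfx3 (0.0092 ± 0.073) were not called, and Rfx2 rose 1.22-fold with overlapping ages, a call lost without any of 7 single arrays (adjusted p 0.0508 to 0.0893). The RFX motif, searched as GTNNCC, any 3 bases, GNAAC on either strand, was in the promoter window of 1 of 15 ciliated genes with a window, against 2.20% of all genes. Basal and neuroendocrine cells were poorly measured, with 2 of 7 and 3 of 10 genes passing the filter. Of the 3 neuroendocrine genes, 1 rose, 1 fell and 1 was not called (median 0.39). The fall was that of Ddc, the decarboxylase that makes serotonin and dopamine and is found in neuroendocrine cells among others. It was 3.43-fold (adjusted p = 1.97e-09).

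Vascular genes divided between endothelium and the contractile wall. Of 27 endothelial genes, 13 rose, 2 fell and 12 were not called (median 0.11). The shares were 48.1% rising and 7.41% falling, against 28.5% and 26.9% of all genes tested. General endothelial genes such as Pecam1 (0.035 ± 0.11), Kdr, the main receptor of vascular endothelial growth factor (0.11 ± 0.077), and Sox17 (-0.007 ± 0.069) were not called. Flt1, a decoy receptor of the same growth factor, rose 1.83-fold, Calcrl, the receptor of adrenomedullin, 1.75-fold (adjusted p = 3.29e-08), and Ptprb, which restrains the angiopoietin receptor, 1.70-fold. The angiopoietin receptor Tek rose 1.47-fold. Nos3, the endothelial nitric oxide synthase, fell 1.38-fold with overlapping ages, and Egfl7 fell 1.42-fold.

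Genes of the lung capillary bed did not move together either, with 3 of 10 rising and 5 falling (30% and 50%, median -0.47). The share that rose was near that of all genes tested (28.5%), and 26.9% of all genes fell. Car4, the carbonic anhydrase of capillaries, rose 1.54-fold, and the fatty acid transporter Cd36 1.42-fold. The ligand Apln fell 1.38-fold and its receptor Aplnr 1.38-fold. The factors Tbx3 (1.66-fold) and Tbx2 (1.52-fold), which mesenchyme also expresses, fell. Ackr1, an atypical chemokine receptor of venules, rose from between 14.8 and 55.8 at 1 wk to between 189 and 339.9 at 5 wk (2.61 ± 0.25, at least 2.38-fold). Hey1, a NOTCH target of arteries, had signals of 1096, 1175, 824, 775 and 992 at 1 wk and 3416, 1794, 2356, 2923 and 3172 at 5 wk. It rose 2.75-fold (adjusted p = 1.44e-06) without overlap. The NOTCH ligand Dll4 (0.25 ± 0.10) and Hey2 (-0.08 ± 0.13), a paralogue of Hey1, were not called. Dll4 was called without 1 wk array 1 or 5 wk array 1 (adjusted p 0.0447 and 0.0269).

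Of the angiogenic factors, Vegfd fell 2.98-fold (adjusted p = 1.21e-08) and Vegfb 1.51-fold, whereas Vegfa, made by alveolar epithelium, rose 1.24-fold. Among signals that set vessel tone, Edn1, the constrictor endothelin, rose 2.10-fold, Ace, which makes angiotensin II, 1.80-fold, and the serotonin transporter Slc6a4 1.93-fold. Ptgis, the prostacyclin synthase, fell 2.02-fold, and the potassium channel Kcnk3 1.84-fold.

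The contractile list fell almost throughout: 15 of its 17 tested genes (smooth muscle and myofibroblasts) fell, with no rise called (median -0.64). Myocd, the coactivator of the smooth muscle program, had signals of 1063, 1140.4, 870.3, 773 and 1022 at 1 wk and 251, 166, 273, 195 and 240.5 at 5 wk. It fell 4.12-fold (-2.04 ± 0.14, adjusted p = 8.74e-09), with no overlap. Acta2, smooth muscle actin, fell 2.09-fold, Smtn 2.48-fold and the myosin light chain Myl9 1.88-fold. Myh11, the myosin of differentiated smooth muscle, fell 1.56-fold, and Des (0.0088 ± 0.14) and Lmod1 (-0.019 ± 0.12) were not called. Of 13 pericyte genes, 4 fell, a share near that of all genes (26.9%), among them the receptor Pdgfrb (1.62-fold), and 2 rose. Over the 107 vascular genes tested, 31 rose and 34 fell (29.0% and 31.8%, median -0.016), near the shares of all genes tested (28.5% and 26.9%).

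Matrix genes fell more often than they rose, 80 against 34 of 138 tested (median -0.38). These were 58.0% and 24.6%, against 26.9% and 28.5% of all genes tested. Of the 138, 28 fell at least 2-fold, against 3.13% of all genes tested. The falls were steepest for microfibril proteins. Fbn2, the fibrillin of developing tissue, had signals of 1337, 1433, 1415, 1423 and 1531 at 1 wk and 38.3, 17.9, 30.4, 36.1 and 12.9 at 5 wk. No array came near the other age, and all 5 wk arrays were beneath the 40th percentile, so that Fbn2 fell at least 12.2-fold (-5.11 ± 0.15, adjusted p = 4.40e-12). Mfap2, which binds fibrillin, fell 4.44-fold, Fbln2 3.20-fold and Fbn1, the main fibrillin, 2.54-fold. Eln, elastin itself, changed far less. Its signals were 8736, 8449.7, 9012, 7309.7 and 7616 at 1 wk and 6535, 7563, 6586, 6081 and 6648 at 5 wk, and it fell 1.23-fold (adjusted p = 0.00846) with overlapping ages.

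Other elastic fibre proteins rose. Efemp1, also called fibulin-3, had signals of 438, 494, 494, 481 and 392 at 1 wk and 1658, 2074, 1880.5, 2049 and 2237 at 5 wk. It rose 4.19-fold (2.07 ± 0.085, adjusted p = 6.93e-11) without overlap, while Efemp2, the closely related fibulin-4, fell 2.09-fold. Mfap5 rose 1.58-fold. Fbln5, needed for elastic fibre assembly, fell 1.53-fold, and Ltbp4 was not called (0.025 ± 0.065). Of 17 elastic fibre genes, 13 fell and 3 rose (median -0.84). Of the lysyl oxidases, which cross-link elastin and collagen, Loxl2 fell 2.64-fold, Loxl1 1.45-fold, and Lox was not called (0.053 ± 0.094). The transglutaminase Tgm2 rose 1.52-fold.

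The interstitial collagens fell by modest amounts. Col1a1 fell 1.40-fold (adjusted p = 0.00133), Col1a2 1.35-fold and Col3a1 1.16-fold, the last with overlapping ages and a call lost without any of 7 single arrays (adjusted p 0.0522 to 0.102). Col5a1, which starts collagen fibrils, fell 2.87-fold, more than its partner Col5a2 (1.28-fold). Col25a1, a transmembrane collagen, fell from between 612 and 828 at 1 wk to between 10.6 and 27.4 at 5 wk, at least 6.46-fold. Col8a1 rose from between 59.3 and 72.3 at 1 wk to between 158 and 224 at 5 wk. In the basement membrane, 12 of 19 genes fell and 4 rose, and the laminin chains divided. Lama2 (2.36-fold), Lamb1 (2.13-fold), Lama5 (1.94-fold) and Lamc1 (1.85-fold) fell without overlap. Lamb3, of the epithelial laminin-332, rose 2.16-fold, its partner Lama3 1.32-fold, and Lamc3 2.40-fold. The nidogen Nid2 fell 2.46-fold.

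Among matricellular proteins the largest fall was that of Tgfbi, a secreted adhesion protein. Its signals were 10463, 10973, 11684, 10255 and 10919 at 1 wk and 1118, 1052, 1315, 1131 and 1038 at 5 wk. All 1 wk arrays were far higher, and Tgfbi fell 9.51-fold (-3.25 ± 0.10, adjusted p = 6.25e-12). Tnc, tenascin-C, fell 4.11-fold (adjusted p = 2.47e-11), and Vcan, the proteoglycan versican, 4.73-fold. Fn1, fibronectin, fell 1.43-fold, and Sparc was not called (-0.049 ± 0.075). On the other side, Ccn5 rose from between 48.0 and 107 at 1 wk to between 593 and 768 at 5 wk (at least 5.70-fold), Vtn, vitronectin, 2.75-fold, and Mgp, which inhibits calcification, 1.91-fold. Of the small leucine-rich proteoglycans, Prelp rose 2.99-fold, Omd 3.02-fold, Lum fell 2.23-fold, and Dcn was not called (-0.069 ± 0.12).

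Enzymes that turn over matrix fell with it, 10 of 16 proteases against 3 that rose. Mmp14, the membrane-bound activator of Mmp2, fell 2.04-fold and Mmp2 1.65-fold. Adamts5, which cleaves versican, fell 2.30-fold. The risers included Ctss, cathepsin S of antigen-presenting cells (2.59-fold), and the macrophage elastase Mmp12 (1.65-fold). Of the inhibitors, Timp1 fell 1.37-fold and Timp2 and Timp3 rose 1.38- and 1.19-fold. Itgb6, an epithelial integrin chain that activates TGF-beta, rose 1.91-fold, and Itga8, of mesenchyme, 1.39-fold, while Itga9 fell 1.96-fold.

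Cell division genes fell as a block. Of 29 tested, 28 fell, 20 of them at least 2-fold (median -1.18), and for 28 the ages did not overlap, against 41.3% of all genes tested. Mki67, the proliferation antigen, had signals of 1495, 1648, 1365, 1756 and 1518 at 1 wk and 731, 627, 681, 622 and 729.5 at 5 wk. It fell 2.26-fold (adjusted p = 1.27e-08) with a clear gap. Kif20a, a mitotic kinesin, fell 3.67-fold, Top2a, a topoisomerase, 3.18-fold (adjusted p = 3.14e-09), and Ccna2, cyclin A2, 3.04-fold. Pcna, the replication clamp, fell only 1.37-fold, and Aurkb was the exception, at 0.23 ± 0.42, with 5 wk signals from 459 to 2005.

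Promoters of late cell cycle genes are known for a cell cycle homology element, TTTGAA, near CCAAT boxes. Both motifs, on either strand, were in the windows of 9 of 23 cell division genes with a window (39.1%), against 7.96% of all genes. All 23 genes with a window fell, with the motifs or without, so the count separates no members. The stretches that hold the matches are shown for the 4 of these 9 genes that fell most, read 5′ to 3′ on the gene's strand from RefSeq's GRCr8 windows of 250 bases before and 50 after the start, with CCAAT (or ATTGG) and TTTGAA (or TTCAAA) in capitals.
Top2a (chr10:84473100-84473342, minus strand): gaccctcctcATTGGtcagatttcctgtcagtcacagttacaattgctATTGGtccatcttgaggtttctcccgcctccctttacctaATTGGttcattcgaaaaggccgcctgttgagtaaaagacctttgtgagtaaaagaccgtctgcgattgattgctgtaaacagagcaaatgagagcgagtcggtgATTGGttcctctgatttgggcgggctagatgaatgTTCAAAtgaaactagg
Cdkn3 (chr15:22502227-22502371, plus strand): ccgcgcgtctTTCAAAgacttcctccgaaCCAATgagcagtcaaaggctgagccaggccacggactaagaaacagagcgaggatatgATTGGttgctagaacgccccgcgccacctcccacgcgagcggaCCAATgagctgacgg
Cdk1 (chr20:19265073-19265292, plus strand): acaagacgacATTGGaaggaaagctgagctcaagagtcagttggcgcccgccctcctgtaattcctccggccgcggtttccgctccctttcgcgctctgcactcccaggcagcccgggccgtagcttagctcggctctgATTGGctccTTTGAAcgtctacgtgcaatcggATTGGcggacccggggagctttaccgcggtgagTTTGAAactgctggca
Cenpf (chr13:103760869-103761027, minus strand): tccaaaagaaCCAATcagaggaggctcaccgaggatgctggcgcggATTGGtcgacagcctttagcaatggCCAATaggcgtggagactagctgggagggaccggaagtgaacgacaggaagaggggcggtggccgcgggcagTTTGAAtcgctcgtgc
These genes encode a topoisomerase, a phosphatase of cyclin-dependent kinases, the mitotic kinase and a centromere protein. They fell 3.18-, 2.63-, 2.33- and 2.28-fold.

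Without the cell division list, 25 of 94 genes of developmental signals rose and 29 fell, 26.6% and 30.9% against 28.5% and 26.9% of all genes tested, and the pathways differed. All 4 hedgehog genes tested fell, led by the effector Gli1 (3.62-fold) and the transducer Smo (2.79-fold). The ligand Wnt11 fell from between 383 and 499.9 at 1 wk to between 48.1 and 112 at 5 wk, at least 3.72-fold, and Lef1, a WNT effector, 1.98-fold, while the inhibitor Sfrp2 rose 2.90-fold. Of FGF signals, Etv4 fell 2.76-fold and the ligand Fgf1 rose 2.57-fold. Of BMP signals, Bmp5 fell 2.74-fold, and the inhibitor Smad6 rose 2.01-fold. In the retinoid pathway, which is known for its part in septation, Crabp1, a retinoic acid binding protein, fell from between 795 and 1388 at 1 wk to between 36.2 and 91.5 at 5 wk (at least 9.16-fold). Aldh1a3, which makes retinoic acid, rose 5.26-fold (adjusted p = 2.79e-09), as did the retinol esterifying enzyme Lrat, from between 14.4 and 72.2 at 1 wk to between 92.6 and 248 at 5 wk. Aldh1a2, the synthase of mesenchyme, was not called (-0.16 ± 0.11). NOTCH genes were mostly not called (10 of 13). The glucocorticoid receptor Nr3c1 was not called (-0.028 ± 0.048), and its target Tsc22d3 rose 2.08-fold.

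**Figure D3:**
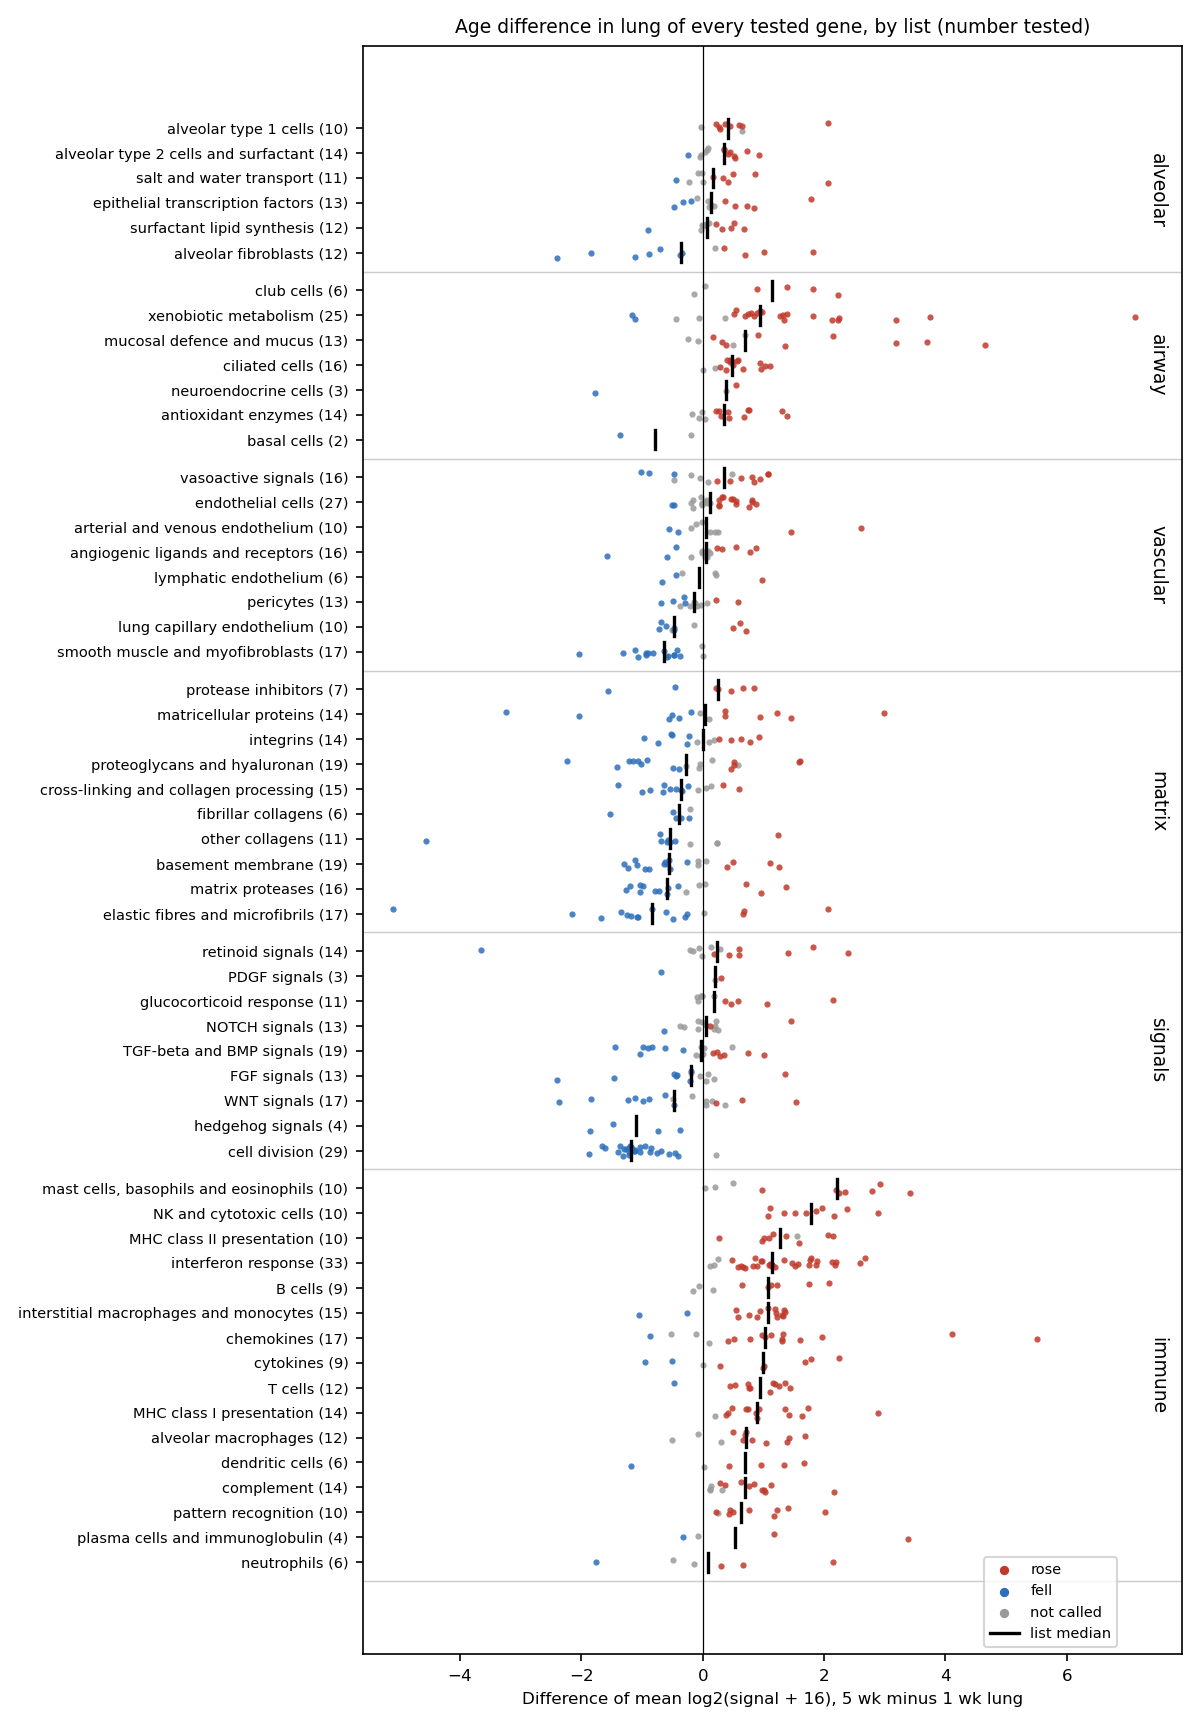
Age difference (5 wk minus 1 wk lung, log2 of signal + 16) of every tested gene of each list, 1 point per gene, coloured by call, with the list's median as a black bar and the number tested in brackets. Immune lists lie mostly to the right of 0 and cell division, smooth muscle and elastic fibre lists to the left; a gene in several lists is drawn in each.

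Immune genes rose across nearly every lineage. Of 188 tested, 152 rose, 95 of them by a fitted log2 difference of at least 1, and 9 fell (median 1.01). For 47 of the 188 most arrays of only 1 age were above the 40th percentile, and such genes pass the filter through the age at which they are high. The share that rose among those tested is therefore given as a count only. Without any filter, 172 of the 238 immune genes named on the array rose and 11 fell (median 0.94). Of all 14217 genes, 3301 rose and 2973 fell without a filter.

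Interferon-stimulated genes, which cells switch on when interferon binds its receptors and which oppose viruses, formed the longest list. Of 33 tested, 30 rose and none fell (median 1.14), 20 by a fitted log2 difference of at least 1. Here 8 of the 33 were above the 40th percentile at only 1 age, and with no filter 32 of 37 rose. Isg15, a ubiquitin-like protein, had signals of 93.7, 172, 139, 205 and 119 at 1 wk and 724, 938, 1051, 1066 and 1232 at 5 wk. The lowest 5 wk array was more than 3 times the highest 1 wk array, and the rise was 6.39-fold (2.68 ± 0.18, adjusted p = 9.98e-09). Usp18, which removes that protein, rose from between 54.6 and 103 at 1 wk to between 407 and 763 at 5 wk, at least 4.69-fold. Irf7, the factor that amplifies the response, was tightly grouped at 1 wk, at 307, 319, 326, 328 and 324, and spread at 5 wk, at 910, 1010.5, 1309.5, 1076 and 1995. It rose 3.64-fold (adjusted p = 6.73e-08). Irf9, part of the signalling complex, rose 2.78-fold, Stat2 1.58-fold and Irf1 1.81-fold. The members did not all move: Rsad2 (viperin) was not called at a high level, 1528 to 2602 at 1 wk and 1959 to 2465 at 5 wk, nor was Ifit1 (0.19 ± 0.39), although its neighbours Ifit2 (2.21-fold) and Ifit3 (from between 13.0 and 65.4 at 1 wk to between 131 and 239 at 5 wk) rose. Cxcl9, Cxcl10 and Cxcl11, the chemokines induced by interferon gamma, did not pass the filter.

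The interferon-stimulated response element, searched as GAAA, any 2 bases and GAAA on either strand, was in the promoter window of 18 of 29 interferon genes with a window (62.1%), against 4.12% of all 27457 genes. Of the 18 with a match, 16 rose, Rsad2 was not called and Cxcl10 was not tested. Of the 11 without, 8 rose, Trim25 was not called, and Cxcl9 and Cxcl11 were not tested. The counts therefore do not separate the tested genes by the motif. The match and its surroundings are shown, 5′ to 3′ on the gene's strand in RefSeq's GRCr8 windows, for the 6 genes with a match that rose most, since this is the element through which such genes are known to be induced. Capitals mark the match, which reads TTTC, 2 bases and TTTC on the other strand.
Oas1a (chr12:41330400-41330459, plus strand): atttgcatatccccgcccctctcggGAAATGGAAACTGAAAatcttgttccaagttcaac
Irf7 (chr1:205800058-205800117, minus strand): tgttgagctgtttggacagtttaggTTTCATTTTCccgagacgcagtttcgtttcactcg
Irgm (chr10:33742578-33742637, minus strand): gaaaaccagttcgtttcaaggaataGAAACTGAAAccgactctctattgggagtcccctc
Ifit3 (chr1:241527257-241527316, plus strand): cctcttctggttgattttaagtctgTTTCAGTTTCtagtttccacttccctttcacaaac
Igtp (chr10:42874919-42874978, plus strand): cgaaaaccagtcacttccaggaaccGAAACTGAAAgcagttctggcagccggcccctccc
Bst2 (chr16:18255064-18255123, minus strand): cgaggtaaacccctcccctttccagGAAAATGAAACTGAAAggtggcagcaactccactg
In Oas1a and Bst2 overlapping matches run together. Oas1a, an RNA sensor, rose from between 55.0 and 92.6 at 1 wk to between 298 and 562 at 5 wk, at least 3.47-fold. Irgm and Igtp, interferon-inducible GTPases, rose 3.42- and 2.98-fold, and Bst2 (tetherin) 2.53-fold. The same motif was in the window of 9 of 13 genes of MHC class I presentation (69.2%).

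Antigen presentation rose in both classes. In class I, which shows peptides from inside the cell, 13 of 14 genes rose (median 0.89), and B2m, the invariant chain, rose 1.41-fold. The immunoproteasome subunits Psmb8 (3.32-fold) and Psmb9 (3.13-fold) and the peptide pump subunit Tap1 (1.87-fold) rose. In class II, which shows peptides taken up from outside, 9 of 10 rose (median 1.27). Cd74, the invariant chain of class II, had signals of 4138, 5495, 5375, 4277 and 4638 at 1 wk and 9388, 9745, 9573, 9222 and 9998 at 5 wk. It rose 2.01-fold (adjusted p = 1.82e-07), and RT1-Da rose by 1.58 ± 0.13. The RT1 genes are near-identical, polymorphic copies in an outbred strain, so their signals are uncertain. RT1-Bb was 326, 1092, 556, 281 and 389 at 1 wk and 2541, 197, 1864, 2882 and 1906 at 5 wk, and it was not called. Without 5 wk array 2, its lowest, it was called at 2.24 (adjusted p = 0.0273).

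Lymphocyte genes were low at 1 wk. Of 10 NK and cytotoxic genes tested, all 10 rose (median 1.79). Of these, 6 were above the 40th percentile at 5 wk only, so their fitted differences do not measure size. With no filter 13 of 15 rose. Gzma, a granzyme, went from 32.0, 64.9, 48.9, 71.1 and 57.8 at 1 wk to 204, 333, 364, 267 and 344 at 5 wk, all 5 wk arrays being higher (at least 2.65-fold). Ccl5, a chemokine of T and NK cells, rose 3.90-fold (adjusted p = 1.11e-06). Of 12 T cell genes 11 rose, 6 of the 12 having passed the filter through 1 age only, and with no filter 14 of 17 rose and 1 fell. The risers included Cd3g of the T cell receptor complex (2.40-fold) and the kinase Lck (2.29-fold). Tcf7, which epithelium and mesenchyme also express, fell 1.38-fold. Of 9 B cell genes, 6 rose, with Ms4a1 (CD20) at 2.33-fold. Here 3 of the 9 had passed the filter through 1 age only, and with no filter 9 of 12 rose. Jchain had signals of 67.6, 44.4, 68.6, 58.8 and 124 at 1 wk and 871, 1515, 430.5, 998 and 897 at 5 wk. The ages did not overlap, and the rise was at least 7.28-fold (3.39 ± 0.35, adjusted p = 7.85e-07).

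Mast cell genes rose strongly where they were measurable. Mcpt1, a mast cell chymase, had signals of 110.5, 126, 103, 148 and 85.5 at 1 wk and 779.5, 1019, 1347, 1048 and 729.7 at 5 wk. It rose 7.58-fold (2.92 ± 0.26, adjusted p = 1.57e-07) without overlap, and Cpa3, the mast cell carboxypeptidase, 4.73-fold. Hdc, which makes histamine, rose 1.98-fold. The tryptase Tpsb2 rose from between 38.8 and 110.4 at 1 wk to between 361 and 483 at 5 wk, and the IgE receptor chain Fcer1a rose by 2.19 ± 0.27. Of 10 tested genes of this list 7 rose and none fell, 5 of the 10 being above the 40th percentile on most arrays at 5 wk only, and without a filter 11 of 18 rose and 2 fell. Mast cell proteases are a family of similar genes, and their probe sets may share signal.

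Macrophage and monocyte genes rose as well. Of 15 interstitial macrophage and monocyte genes, 13 rose and 2 fell (median 1.07). Csf1r, the growth factor receptor of the lineage, rose 2.10-fold, and the complement chains C1qa, C1qb and C1qc 2.29-, 2.48- and 2.49-fold. Lyz2, lysozyme of macrophages and type 2 cells, fell 1.20-fold, a call lost without any of 6 single arrays (adjusted p 0.057 to 0.112), and Pf4, which platelets hold, 2.06-fold with overlapping ages. Of 12 alveolar macrophage genes 9 rose, led by Il18 (3.21-fold) and Itgax (CD11c, 2.67-fold), and the lipid-handling proteins Fabp4 (-0.51 ± 0.52) and Fabp5 (-0.085 ± 0.084) were not called. Neutrophil genes went apart: of 6 tested, 3 rose, 1 fell and 2 were not called (median 0.083). Whether the rises came from neutrophils was not tested. Without a filter, 4 of 10 rose and 2 fell. The alarmins S100a8 (-0.49 ± 0.24) and S100a9 (-0.14 ± 0.28) were not called, though S100a8 was without 5 wk array 3 (adjusted p = 0.0361). Camp, a granule peptide of maturing neutrophils, fell from between 135 and 309.5 at 1 wk to between 19.2 and 114 at 5 wk.

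Of 17 chemokines tested, 13 rose and 1 fell, 6 of the 17 having passed the filter through 1 age only. With no filter, 17 of 27 chemokines rose and 1 fell. Of 10 microbial sensors tested, 9 rose, 1 of the 10 having passed through 1 age only, and with no filter 9 of 11 rose. Cxcl14, an epithelial and stromal chemokine, had signals of 29.2, 33.1, 14.8, 17.7 and 37.4 at 1 wk and 1901, 1706, 2037, 1750.3 and 1946 at 5 wk. All 1 wk arrays were beneath the 40th percentile and the 5 wk arrays were tightly grouped, a rise of at least 15.9-fold (5.50 ± 0.18, adjusted p = 8.33e-12). Ccl11, the eosinophil attractant eotaxin, rose from between 22.2 and 50.4 at 1 wk to between 816 and 1214 at 5 wk, at least 8.32-fold. Cxcl13, a B cell attractant, fell 1.83-fold. Lbp, which hands bacterial lipopolysaccharide to its receptor, rose 4.03-fold, and the receptor Tlr4 2.64-fold. Clu, a complement inhibitor, rose 4.47-fold and C3 1.69-fold. Il33, an epithelial alarmin, rose 1.99-fold, and Il1a fell 1.94-fold. None of 7 erythroid genes tested was called, and their mean log2 level was 9.74 to 10.48 at 1 wk and 9.73 to 10.19 at 5 wk. Whether the amount of blood in the tissue had a part in the immune differences was not tested.

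**Figure D4:**
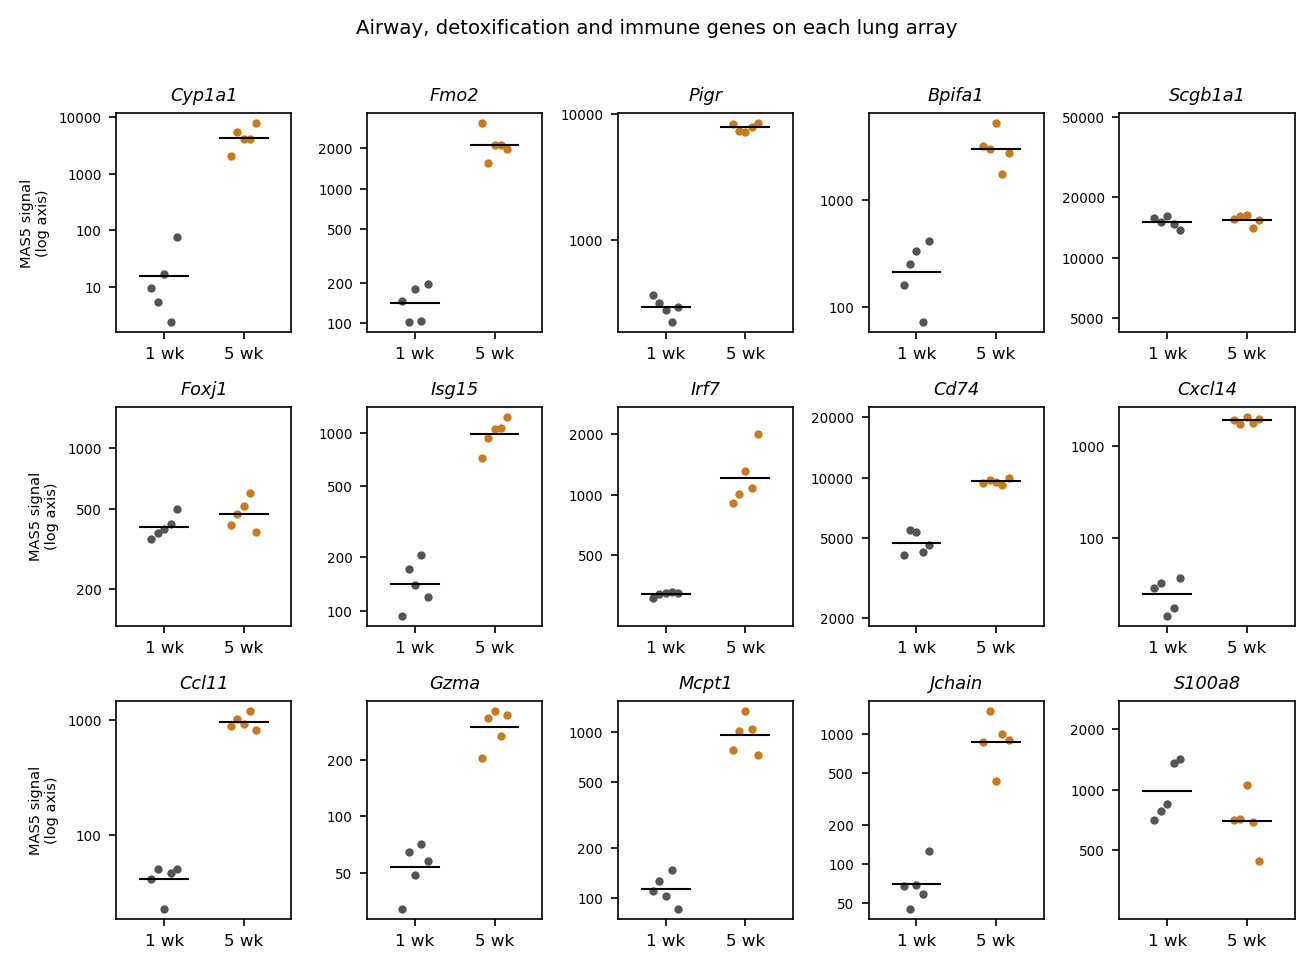
Signals on log axes of 15 airway, detoxification and immune genes on each of the 5 lung arrays at 1 wk (grey) and at 5 wk (orange), with a line at the mean taken on the log2(signal + 16) scale. Cyp1a1, Pigr and Cxcl14 are far apart between the ages, while Scgb1a1, Foxj1 and S100a8 overlap.

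Beyond the programs, the largest changes among genes whose ages did not overlap included Ly6i and H19. Ly6i, a surface protein of the Ly6 family, had signals of 1875, 186, 201, 96.1 and 176 at 1 wk and 5265, 3006, 5249.9, 7176 and 4752 at 5 wk. It rose 17.4-fold, and 1 wk array 1 lay far above the other 1 wk arrays, without which the rise was 28.1-fold. H19, an imprinted non-coding RNA of fetal tissue, fell 9.24-fold, and 1 wk array 2 was its highest, at 4756. Unc5c, a netrin receptor, fell 7.30-fold and Fndc1 6.48-fold. The stefins Stfa3, from between 199 and 584 at 1 wk to between 1.01 and 6.29 at 5 wk, and Stfa2l2, at 5.33-fold, fell, and these protease inhibitors are near copies of each other. Chodl, a lectin-like membrane protein, rose from between 35.2 and 76.0 at 1 wk to between 337 and 643 at 5 wk, and Gnat3, the taste G protein of tuft cells, from between 2.67 and 54.2 at 1 wk to between 146 and 329 at 5 wk.

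Clock genes differed too. Of 16 tested, 9 rose and 4 fell (56.25% and 25%, against 28.5% and 26.9% of all genes tested). Nr1d1, a repressor of the clock, had signals of 117, 95.0, 94.7, 126 and 153 at 1 wk and 634, 865, 818, 901 and 856 at 5 wk. All 5 wk arrays were higher (2.65 ± 0.13, adjusted p = 3.77e-10), Dbp rose 2.83-fold, Cry1 fell 2.09-fold, and Per1 was not called (-0.014 ± 0.24). The time of day of collection is not given in the labels, and its part in these differences was not tested.

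Some genes varied widely among rats of an age. Fam111a, a protease that restricts viruses, had signals of 841, 4916, 4679, 6633 and 694 at 1 wk and 4743, 4522, 4203, 349 and 402 at 5 wk, high on 3 arrays and low on 2 at each age. Zeb2, a repressor of epithelial genes, was 529, 4036, 386, 1921 and 495 at 1 wk and 1939, 395, 1039, 1048 and 2409.7 at 5 wk. The class I gene RT1-CE16 reached 406 and 641 at most and 41.7 and 50.6 at least at the 2 ages, in that order. On single 5 wk arrays, Clec3b was 84.9 on array 5, and Ythdf2 was 335 on array 2, against 2471 or more on the others. For these genes 1 value per rat is all the data give, and no cause was tested.

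The kidneys of rats of the same ages were used to ask which of these differences were larger or smaller in lung. Of 10150 genes tested in both organs, the age difference in lung lay above that in kidney for 3456 (34.0%) and below it for 2064 (20.3%), together 54.4%. This split depended on the scale: with each array centred on its median, 1693 lay above and 3851 below, as the median of all interaction values moved from 0.107 to -0.165. Statements on organs therefore rest on genes called in the same direction under both scalings. By that rule 1693 of 10150 genes (16.7%) lay above and 2064 (20.3%) below. The list medians that follow are of the deposited scale and, like the split, depend on it. On that scale cell division genes had close medians in both organs, of -1.18 in lung and -1.23 in kidney over 29 genes. Under both scalings 3 of these genes lay above and 3 below. Of 31 interferon genes tested in both, the medians were 1.12 in lung and 0.66 in kidney, 8 lay above and 1 below under both scalings, and 21 rose and 1 fell in kidney. Class II presentation had the higher median in kidney, 2.25 against 1.27 in lung, with 4 of 10 genes below and none above under both scalings.

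Matrix and vessel lists had lower medians in kidney on the deposited scale. Over 127 matrix genes tested in both organs the median was -0.40 in lung and -0.92 in kidney, and 57 lay above and 15 below under both scalings. Postn, periostin, fell 1.14-fold in lung (not called in the fit of all 30 arrays, adjusted p = 0.455, or without the 3 arrays, 0.0919) against a kidney difference of -4.04 ± 0.27, and Eln differed by -1.84 ± 0.13 in kidney. Over 27 endothelial genes in lung and kidney the medians were 0.11 and -0.43, and 13 lay above and 1 below. Type 1 cell genes shared with kidney showed the same side, with 6 of 6 above. The 7 type 2 genes tested in both organs did not. Their medians were 0.35 in lung and 0.67 in kidney, with 1 above and 4 below under both scalings. Over 48 alveolar genes, 16 lay above and 12 below. Over 55 airway genes the medians were 0.55 in lung and 0.56 in kidney. Of these, 33 rose and 10 fell in kidney, and 18 lay above and 15 below under both scalings.

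Among the genes with the largest difference between organs, Cyp1a1 rose in kidney by 2.54 ± 0.30 and Cxcl14 by 1.45 ± 0.22. The lung difference lay above that of kidney for both (adjusted p = 1.79e-08 for Cyp1a1), and its size is not given because their 1 wk lung signals were beneath the 40th percentile. Ddc rose in kidney by 1.67 ± 0.048 while it fell in lung (difference -3.44 ± 0.11, adjusted p = 7.28e-19). Tff3, a trefoil peptide, was not called in lung and rose in kidney by 4.40 ± 0.24 (difference -4.48 ± 0.27, -4.76 after centring). Pigr rose in kidney by 4.70 ± 0.24 and in lung by 4.65 ± 0.13, an interaction of -0.05 ± 0.29 (adjusted p = 0.897).

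**Figure D5:**
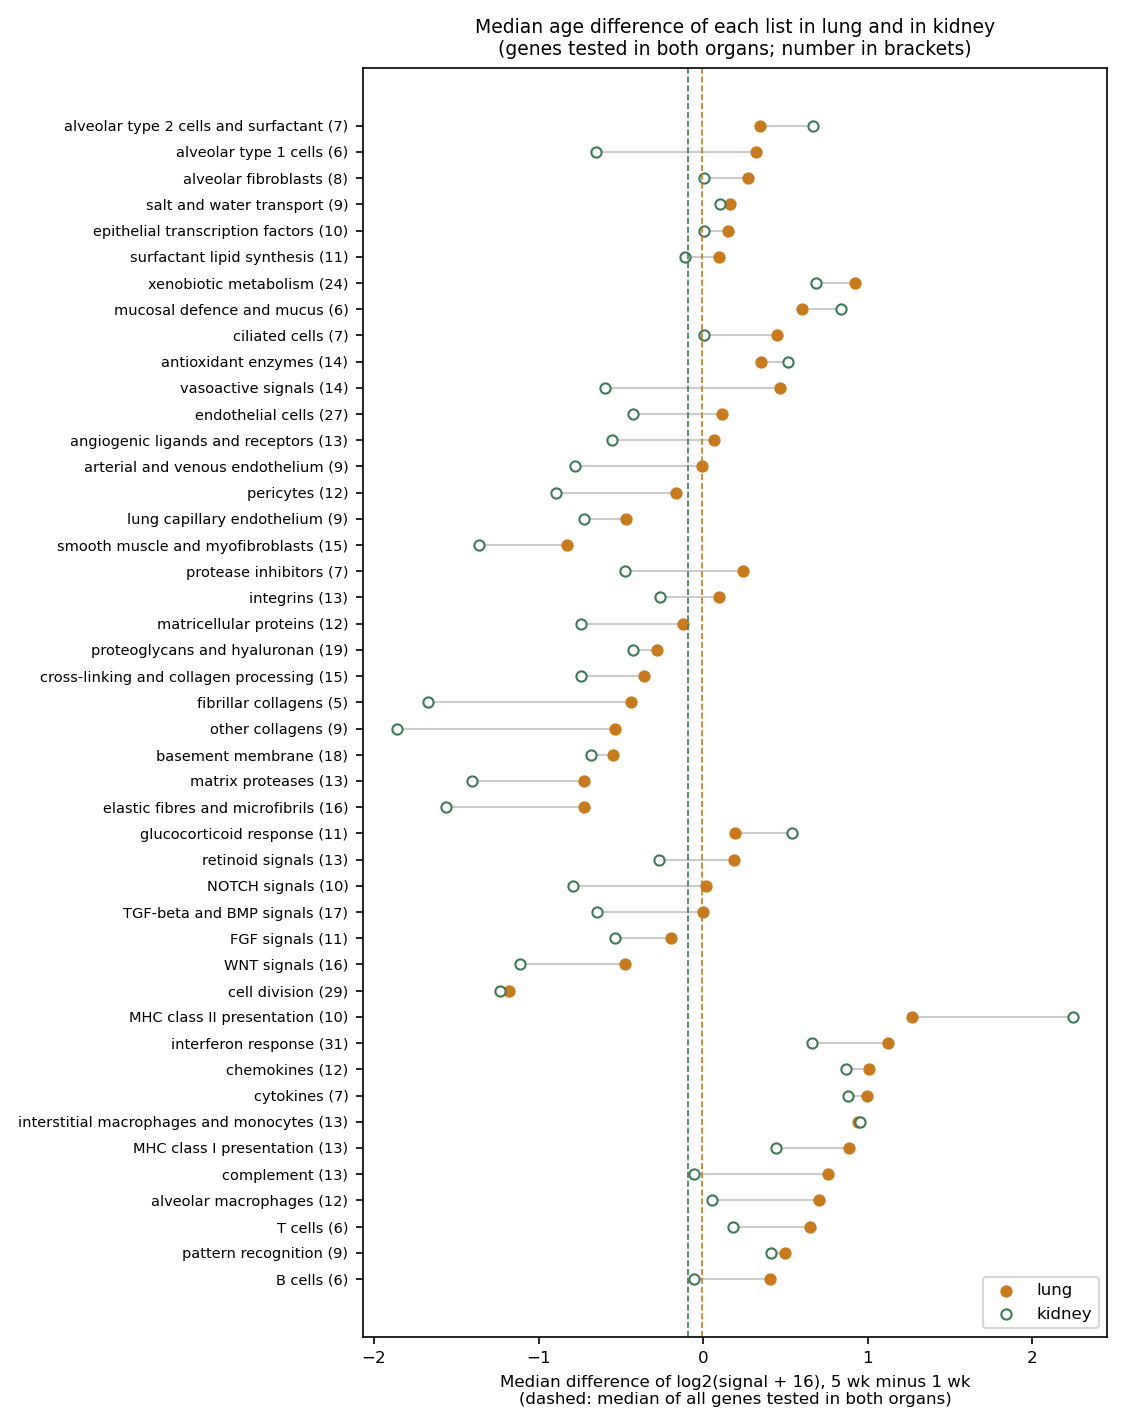
Median age difference (5 wk minus 1 wk, log2 of signal + 16) of each list with at least 5 genes tested in both organs, for lung (filled orange) and kidney (open green), with dashed lines at the medians of all genes tested in both. On the deposited scale used here, cell division lies at about the same place in both organs (-1.18 and -1.23). Collagens and elastic fibres lie further left in kidney and MHC class II further right.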

How the data were processed

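Whole-organ RNA was hybridised to Affymetrix rat arrays, 1 array per sample, and per the labels' protocols 2 ug of total RNA was labelled with biotin. The deposited values are linear signal intensities that the authors made with MAS5, per the submitters' processing notes, whose version is not given in the sources used here. Of 31099 probe sets, 20826 carried 1 gene symbol in GEO's platform annotation, 436 several and 9780 none, and those without 1 symbol were left out. Each of 14217 genes was represented by its probe set of highest mean signal. Signals were taken as log2(signal + 16), which understates changes of low genes, and a gene was tested if at least 5 of the 15 lung arrays exceeded that array's 40th percentile. limma 3.58.1 in R 4.3.3 fitted all 15 lung arrays (lmFit, eBayes), with Benjamini-Hochberg adjustment over 10802 genes and a threshold of 0.05. A fit of all 30 arrays gave the interaction of age with organ. In data simulated for 10802 genes, 50 genes each were changed by 0.25, 0.5, 1 and 2 (log2) and the rest were left unchanged. Of these, 26%, 68%, 94% and 98% were recovered, and 6.54% of called genes were unchanged. In the lung comparison 55.3% of genes were called, a far larger share than was changed here. The simulated rates therefore do not give the sensitivity of that comparison. The number of arrays, 5 per age, limits the precision. The labels call the arrays biological replicates and the design text speaks of 5 animals each, but do not say whether a kidney and a lung of the same number came from 1 rat. Same-numbered lung arrays of the 2 ages did not deviate together (correlations of -0.163 to -0.014).

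The genes named were members of the lists, the 15 largest rises and 15 largest falls without overlap, the 10 genes of largest spread at each age, and the 8 genes per direction that differed most between organs. Members and lists were chosen with earlier results of these data known, so no list was tested as a set. Promoters came from RefSeq's GRCr8 table, matched by symbol. Alternatives covered the pseudocount, filter, normalization, probe set choice, variance model, array weights, arrays in the fit, replicate block and single arrays left out. Genes of near-identical families (RT1, Ly6, stefins, mast cell proteases, glutathione transferases, Oas) are uncertain, since probes may share signal.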

Additional observations from a re-analysis of the deposited data

Results flagged for a closer look

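In 33 of 538 groups of 5 arrays, over the genes reported, the highest or lowest array stood apart: its gap to the nearest other array, divided by the range, exceeded Dixon's critical value of 0.71. Chance alone does so in about 1 in 20 groups. Each gene below is given with its signal on that array and this ratio.

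On 1 wk array 1, the values standing apart were low Dcn (signal 2835, ratio 0.805), high Itgax (signal 138, ratio 0.863) and low Itgb6 (signal 213, ratio 0.836). Also on 1 wk array 1, the values standing apart were low Lum (signal 2202, ratio 0.87), high Ly6i (signal 1875, ratio 0.766) and high Muc5b (signal 1530, ratio 0.735). Also on 1 wk array 1, the value standing apart was low Nid2 (signal 1670, ratio 0.765). On 1 wk array 2, the values standing apart were high Bst2 (signal 2026, ratio 0.867) and low Dll4 (signal 655, ratio 0.879). On 1 wk array 3, the values standing apart were low Ccl11 (signal 22.2, ratio 0.72), low Cpa3 (signal 139, ratio 0.844) and low Des (signal 586, ratio 0.798). On 1 wk array 4, the value standing apart was high Kif20a (signal 1360, ratio 0.715). On 1 wk array 5, the value standing apart was low Fmo1 (signal 249.5, ratio 0.823).

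On 5 wk array 1, the values standing apart were low Car4 (signal 3072, ratio 0.851), high Cry1 (signal 391, ratio 0.788) and low Nr1d1 (signal 634, ratio 0.722). Also on 5 wk array 1, the value standing apart was high Tbx5 (signal 1192, ratio 0.781). On 5 wk array 2, the values standing apart were low Per1 (signal 579, ratio 0.745), low Pnpla2 (signal 1688, ratio 0.832) and low RT1-Bb (signal 197, ratio 0.834). Also on 5 wk array 2, the values standing apart were high Vegfa (signal 6564, ratio 0.775) and low Ythdf2 (signal 335, ratio 0.922). On 5 wk array 3, the values standing apart were high Lum (signal 1438, ratio 0.934), high Nppa (signal 3127, ratio 0.834) and high Unc5c (signal 166, ratio 0.828). On 5 wk array 4, the value standing apart was low Emp2 (signal 8007, ratio 0.731). On 5 wk array 5, the values standing apart were low Cenpf (signal 420.3, ratio 0.778), low Clec3b (signal 84.9, ratio 0.824) and low Kif20a (signal 129.5, ratio 0.882). Also on 5 wk array 5, the values standing apart were low Mmp2 (signal 3157, ratio 0.753), low Napsa (signal 7646, ratio 0.71) and high RT1-CE16 (signal 641, ratio 0.719).

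The age difference of 16 genes differed most between lung and kidney by the interaction term, 8 in each direction, and each kept its sign with arrays centred on their median. Fitted values of genes beneath the 40th percentile in a group, such as Cyp1a1, Cxcl14 and Crabp1 in lung, depend on the added 16 and do not measure size. These lay above kidney. Moxd1 differed by 1.08 in lung and -3.82 in kidney, an interaction of 4.90. Cldn11 differed by 1.52 in lung and -3.13 in kidney, an interaction of 4.65. Cyp1a1 differed by 7.12 in lung and 2.54 in kidney, an interaction of 4.58. Fgg differed by 1.73 in lung and -2.72 ± 0.72 in kidney, an interaction of 4.45. The liver transcripts Alb (-4.63 ± 0.85) and Ahsg (-4.05 ± 0.78) were also lower at 5 wk in kidney, and whether this bears on Fgg was not tested. Ly6i differed by 4.12 in lung and -0.017 in kidney, an interaction of 4.14. Epha3 differed by 0.22 in lung and -3.86 in kidney, an interaction of 4.08. Cxcl14 differed by 5.50 in lung and 1.45 in kidney, an interaction of 4.05. Tnnt2 differed by 0.37 in lung and -3.57 in kidney, an interaction of 3.94. These lay below kidney. Tff3 differed by -0.085 in lung and 4.40 in kidney, an interaction of -4.48. Akr1c13 differed by 0.15 in lung and 4.61 in kidney, an interaction of -4.46. Adra2b differed by -2.13 in lung and 2.16 in kidney, an interaction of -4.29. Etv1 differed by -1.47 in lung and 2.31 in kidney, an interaction of -3.77. Crabp1 differed by -3.65 in lung and 0.03 in kidney, an interaction of -3.68. Ptprn differed by -0.45 in lung and 3.11 in kidney, an interaction of -3.56. Ddc differed by -1.78 in lung and 1.67 in kidney, an interaction of -3.44. Nat8b differed by 0.15 in lung and 3.57 in kidney, an interaction of -3.42.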

How the results depend on the processing

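Over the settings tried, including each array left out, the counts of genes called and of 2-fold genes in lung stayed within 1.5 times the reported counts. Leaving out single arrays gave 5592 to 5895 called genes, 2863 to 3083 that rose and 2702 to 2863 that fell. The same settings gave 797 to 848 genes of at least 2-fold, 473 to 512 higher and 309 to 357 lower. A filter at the 60th percentile left 98 immune genes that rose and 5 that fell, since fewer genes were tested. With each array centred on its median, 1693 genes lay above kidney and 3851 below, or 30.5% above among those called instead of 62.6%. Leaving out single arrays gave 3278 to 3422 above and 1977 to 2055 below. Averaging the probe sets of a gene turned Cav1 to 0.27 (adjusted p = 0.000701) and Zeb2 to -0.56 (adjusted p = 0.0252), and the cause was not tested. With the replicate block 3003 genes rose and 2824 fell, and against kidney 3584 lay above and 2139 below. The replicate numbers are not known to pair the samples. Of 269 reported genes that were tested, 239 had the same call in every setting. Among the others, Mmp2 was not called with averaged probe sets (adjusted p = 0.362). Sftpd (adjusted p = 0.228), C3 (0.229), Mfap5 (0.114), Lama3 (0.0944), Tekt2 (0.0967), Tekt4 (0.105) and Postn (0.455) were not called when all 30 arrays shared 1 estimate of the spread. Quantile normalization called Scgb1a1 (adjusted p = 0.000425) and Sftpb (0.00205), and left Sftpc (0.413), Col3a1 (0.599) and Lyz2 (0.209) uncalled. Without the 3 arrays that stood apart, Cftr (0.111), Pdpn (0.162) and Timp3 (0.0821) were no longer called, while Fabp4 (0.0118) and Scgb3a1 (0.0389) were. Signals beneath the 40th percentile limit what can be said of genes low at 1 age.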
